A study of Mus musculus with 24 samples.

Results

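The gluconeogenesis and pyruvate dehydrogenase control set held 10 genes, chosen by symbol from the deposited count table: Pcx, Pck1, Pck2, Fbp1, G6pc and Slc37a4 for glucose production, and Pdha1, Pdk1, Pdk2 and Pdk4 for the pyruvate dehydrogenase step. Each symbol matched 1 row of the 55335 annotated genes, and all 10 were among the 13281 genes that passed the expression filter and were tested. Liver polyA RNA came from 24 female mice, 4 in each of 6 groups: 2 genotypes on each of 3 diets. The wild-type (WT) strain was B6129SF2/J. The 3xTg-AD (3xTg) mice are a model of Alzheimer's disease with transgenes for mutant human APP and tau, driven by a neuronal promoter (Thy1). All mice were 3 months old when a diet began, and each diet lasted 6 months. The control diet supplied 70% carbohydrate, 20% long-chain triglyceride and 10% protein at 4.1 kcal/g. The medium-chain triglyceride diet (MCT) kept the carbohydrate, protein and energy density of the control diet, and split its fat evenly between long-chain (10%) and medium-chain triglyceride (10%). The ketogenic diet (KD) contained no carbohydrate, with fat (long-chain triglyceride) at 90%, protein at 10% and an energy density of 6.7 kcal/g. Each library is labelled as a separate mouse, so the spread within a group is between animals. The comparisons ask how each diet and the 3xTg genotype relate to the transcript levels of these genes in liver.

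The liver makes glucose from lactate, amino acids and glycerol when dietary carbohydrate is scarce. Pyruvate enters this route through pyruvate carboxylase (Pcx) in mitochondria, whose product is handed to phosphoenolpyruvate carboxykinase (cytosolic Pck1, mitochondrial Pck2). Fructose bisphosphatase (Fbp1) takes a later step, and the carbon leaves as free glucose through the endoplasmic reticulum enzyme glucose-6-phosphatase (G6pc) and its substrate transporter (Slc37a4). The alternative fate of pyruvate is oxidation by the pyruvate dehydrogenase complex, whose catalytic subunit Pdha1 is switched off by phosphorylation by the kinases Pdk1, Pdk2 and Pdk4. Pck1 and G6pc are textbook targets of glucagon and insulin signalling, and Pdk4 is a textbook target of fasting and of fatty acid sensing through PPARα.

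Upstream sequences were examined for 3 members: Pdk1, the only member whose change passed the test, and Pck1 and G6pc, the hormone-responsive genes of the route. The sequences are RefSeq, GRCm38.p6, plus strand, 5′ to 3′, and each run stops before the first base of the earliest annotated transcript. Capitals mark a GC box (GGGCGG) in Pdk1 at -62 from the RefSeq start site, the core of a cAMP response element (ACGTCA) in Pck1 at -91, and 2 copies of TGTTTT in G6pc at -188 and -174. TGTTTT is the reverse complement of AAAACA, the forkhead core of insulin response elements.
Pdk1, chr2:71872974-71873223: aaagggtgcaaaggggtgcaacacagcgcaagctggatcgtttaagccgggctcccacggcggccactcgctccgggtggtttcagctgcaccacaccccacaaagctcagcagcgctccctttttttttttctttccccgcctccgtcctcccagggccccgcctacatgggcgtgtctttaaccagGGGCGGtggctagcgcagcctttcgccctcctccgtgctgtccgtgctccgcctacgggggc
Pck1, chr2:173152823-173153047: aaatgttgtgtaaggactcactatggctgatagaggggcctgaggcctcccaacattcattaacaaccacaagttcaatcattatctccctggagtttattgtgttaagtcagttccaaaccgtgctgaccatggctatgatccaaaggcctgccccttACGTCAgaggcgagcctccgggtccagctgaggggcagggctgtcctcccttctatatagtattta
G6pc, chr11:101367466-101367560: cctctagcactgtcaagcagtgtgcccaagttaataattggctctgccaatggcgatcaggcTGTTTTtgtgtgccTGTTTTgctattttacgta
All 10 members matched the promoter table, with 15 windows among them. A member was counted if any of its windows held the letters. Counts of members and shares of windows are thus not on the same unit. On either strand of the 250 bases before a start site, ACGTCA occurred in 6.47% of 32851 windows and in 2 of the 10 members, and AAAACA in 19.8% of windows and in 4 members. The other letters searched were AGGTCA, a nuclear receptor half-site (14.02% of windows, 2 members), ACGTG, a hypoxia response core (16.6%, 2 members), and GGGCGG (32.7%, 6 members). ACGTG and ACGTCA share their first 4 letters, and the searches allowed overlaps. These matches describe the letters in the window and carry no evidence of binding in these livers.

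Libraries held 12009432 to 20108831 counts on genes. Each of the 10 hepatocyte markers was detected, with a summed level of 103723 to 190878 CPM (gene counts as a rate of the library total). Marker sums are on this unscaled rate, whereas levels of single genes are CPM scaled by the trimmed mean of M-values (TMM). Of 6 kidney tubule markers, 3 were at 0 in every library, with the list's sum at most 1.18 CPM. Exocrine pancreas transcripts, 17 of 17 listed genes present in the table, summed to over 100 CPM in 6 libraries: WT KD replicates 1, 2 and 4, WT MCT replicate 3, and 3xTg MCT replicates 3 and 4. In 3xTg KD livers against 3xTg control livers, neutrophil markers (9 genes, none at 0 everywhere) summed to 5.04 to 95.6 against 3.77 to 5.30 CPM, with replicates 2 and 3 highest. In the same pair of groups, Kupffer cell and macrophage markers (11 genes, none at 0 everywhere) summed to 670 to 995 against 402 to 647 CPM, hepatocyte markers to 103723 to 133548 against 136293 to 190878 CPM, and the TMM factor was 1.19 to 1.32 against 0.967 to 1.11. Pericentral hepatocyte markers summed to 10634 to 12570 against 6697 to 9601 CPM, endothelial markers to 339 to 416 against 276 to 329 CPM, and stellate cell markers to 484 to 565 against 346 to 437 CPM. Periportal hepatocyte markers overlapped, at 1751 to 2515 against 1862 to 2503 CPM. The share of counts on mitochondrial genes was 6.11% to 7.37% against 6.54% to 14.1%. The clock gene Dbp ranged from 2.10 to 114 CPM over the 24 livers and varied within every group, for example from 9.86 to 75.9 CPM among 3xTg control livers. In bulk tissue, fewer cells of a type and less RNA per cell cannot be told apart.

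Per kilobase of the longest protein-coding transcript, Fbp1 had the highest mean level of the set, at 672 ± 165 CPM per kb (SD, n = 24 livers), followed by Pck1 at 448 ± 146. Pcx (108 ± 25.4) and G6pc (96.6 ± 40.1) came next and were within each other's spread. Pdha1 had 60.5 ± 6.93, and Pdk1 (45.1 ± 9.65) and Slc37a4 (40.3 ± 12.2) were again within each other's spread. Pdk2 had 26.99 ± 6.31 and Pdk4 11.1 ± 6.02 CPM per kb. Pck2 was the lowest at 0.688 ± 0.170 CPM per kb and rested on only 22 to 86 reads per library. The plot of the 10 genes by group shows how unevenly they varied between mice. Pck1 spanned 10.7-fold from the lowest to the highest liver and Pdk4 8.58-fold, whereas Pdha1 spanned 1.54-fold.

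**Figure D1:**
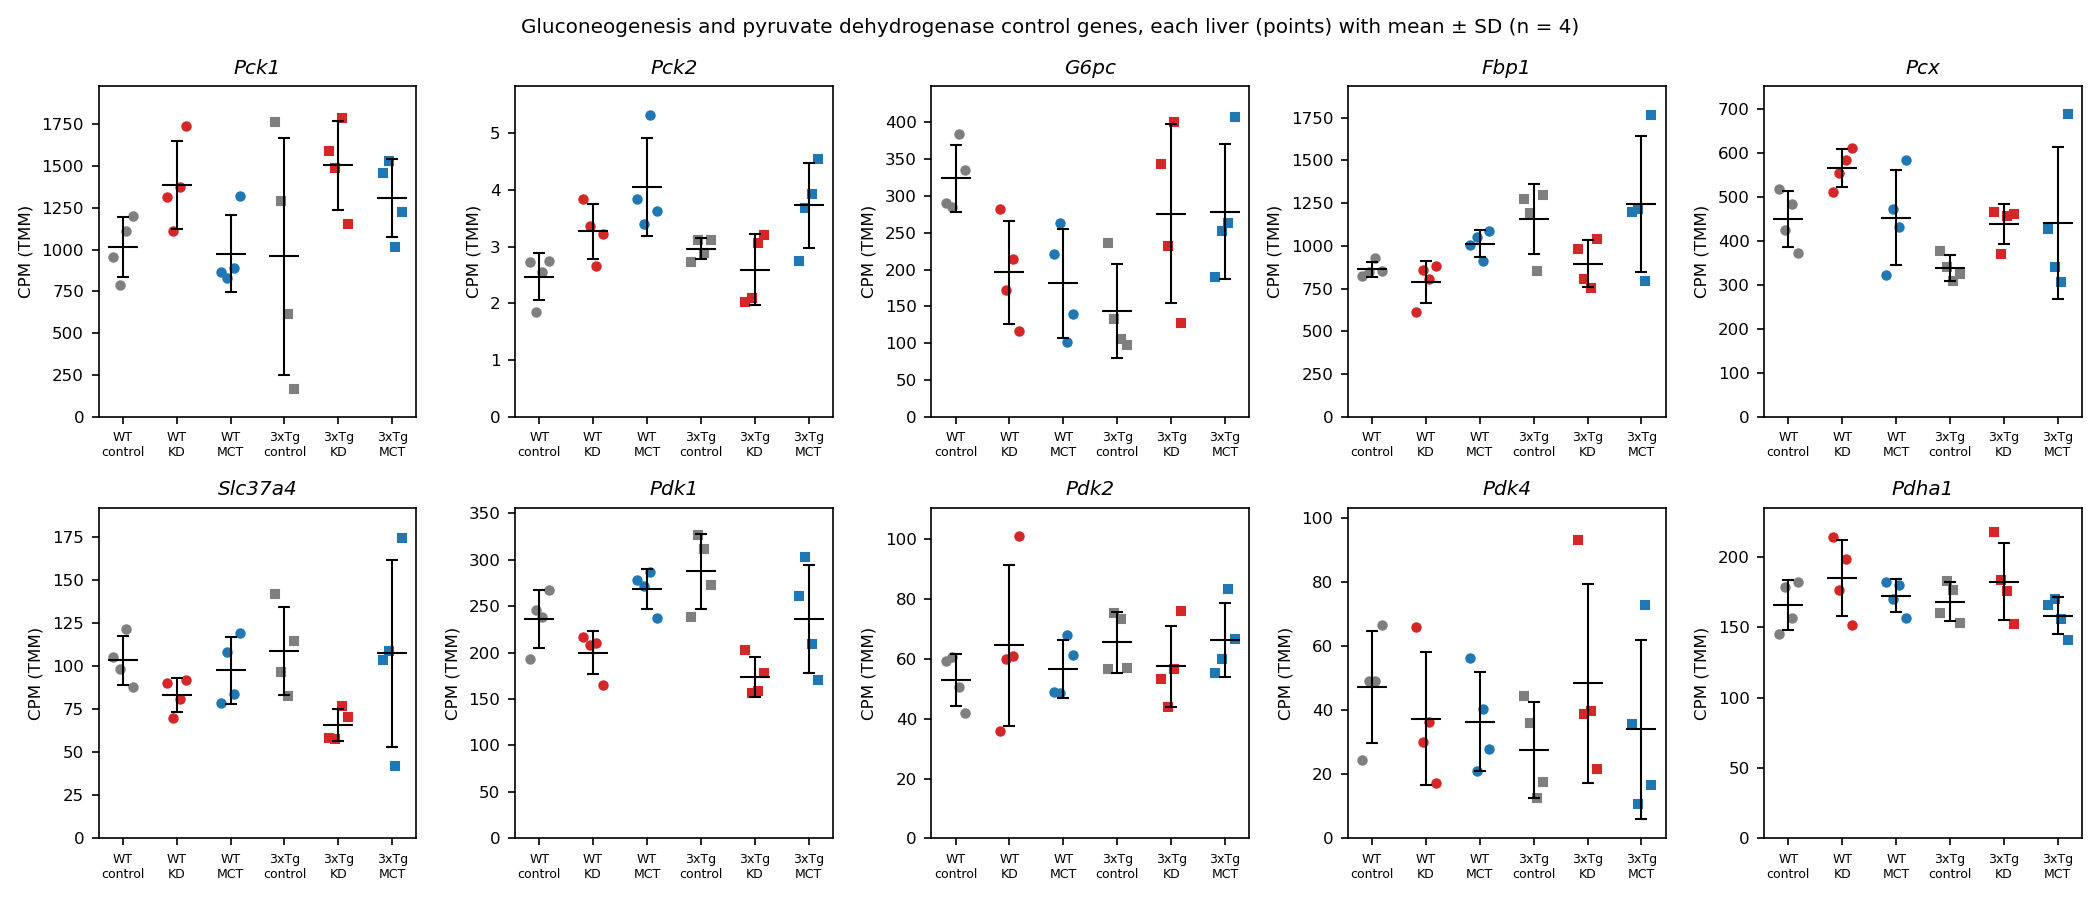
Level of each of the 10 genes (TMM-scaled CPM, linear axis from 0) in the 24 livers, by genotype and diet, with circles for WT, squares for 3xTg, and bars for the group mean ± SD (n = 4). Pdk1 in 3xTg KD livers (156 to 203 CPM) lies below all 3xTg control livers (238 to 327 CPM), and Pck1 is most dispersed in 3xTg control livers (168 to 1766 CPM).

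Pyruvate carboxylase, the entry step, did not pass the main test in any comparison. Pcx had 518, 425, 483 and 372 CPM in WT control livers and 510, 554, 583 and 611 CPM in WT KD livers. In 3xTg it had 378, 339, 309 and 324 CPM on control diet and 464, 370, 457 and 460 CPM on KD. The 2 groups overlapped in each genotype, in 3xTg through 1 KD liver at 370 CPM. The log2 difference of KD from control was 0.33 ± 0.20 (SE) in WT and 0.38 ± 0.20 in 3xTg, with adjusted p = 0.544 and 0.338 (edgeR quasi-likelihood test with Benjamini-Hochberg adjustment over all 13281 genes, the test behind every adjusted p here unless another tool is named). On KD, every 3xTg liver was below every WT liver for Pcx, with a log2 difference of -0.37 ± 0.20 and adjusted p = 0.288. Pcx passed under 3 alternatives. The first was KD in 3xTg with library-size scaling (adjusted p = 0.0448), where the median of all genes was 0.31 and was not subtracted before the test. The others were the average KD effect in a fit of the compared groups alone (0.35, adjusted p = 0.0420), and the average genotype effect without 3xTg MCT replicate 4 (-0.37, adjusted p = 0.0124).

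Pck1, the cytosolic carboxykinase and the classical control point of the route, was at a high level in nearly every liver. WT livers had 955, 791, 1112 and 1204 CPM on control diet, 1316, 1112, 1376 and 1742 CPM on KD, and 865, 828, 893 and 1319 CPM on MCT. In 3xTg the values were 1766, 1289, 614 and 168 CPM on control diet, 1591, 1486, 1786 and 1154 CPM on KD, and 1461, 1530, 1017 and 1227 CPM on MCT. The KD livers sat high within each genotype, but the groups overlapped, and the 3xTg control group alone reached from below every other group to near the top of them. KD exceeded control by a log2 difference of 0.45 ± 0.39 in WT (adjusted p = 0.697) and 0.65 ± 0.39 in 3xTg (adjusted p = 0.403), and the 95% intervals of these differences, -0.37 to 1.26 and -0.17 to 1.47, hold both no change and a doubling. For MCT the log2 differences from control were -0.06 ± 0.39 in WT and 0.45 ± 0.39 in 3xTg. The 3xTg control liver with 168 CPM of Pck1 (replicate 4) had 9.86 CPM of Dbp, the lowest of its group. The part of the clock in the spread of Pck1 was not tested. Pck2, the mitochondrial isoform, was near the detection limit of these libraries, at 1.86 to 2.75 CPM in WT control and 3.41 to 5.33 CPM in WT MCT livers. These 2 groups did not overlap, with a log2 difference of 0.71 ± 0.21 (unadjusted p = 0.0029 in edgeR), but the adjusted p was 0.710. Pck2 shares 2134 bases with the antisense gene Gm10876, and the strand setting of the counting is not given in the sources used here.

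Fbp1 differed little between WT groups, with 821, 848, 927 and 854 CPM on control diet, 613, 857, 806 and 883 CPM on KD and 1007, 1050, 909 and 1090 CPM on MCT. All KD livers of WT were below all MCT livers of WT. That log2 difference was -0.36 ± 0.19, with adjusted p = 0.738. In 3xTg, Fbp1 was between 855 and 1295 CPM on control diet, 754 and 1039 CPM on KD, and 795 and 1768 CPM on MCT, and all 3 ranges overlapped. The log2 difference of KD from MCT in 3xTg was -0.48 ± 0.19, with adjusted p = 0.122. That comparison passed in 1 of 8 omissions of a single liver (adjusted p = 0.0355). Averaged over diets, the log2 difference of 3xTg from WT for Fbp1 was 0.30 ± 0.11, which did not pass the test (adjusted p = 0.0858). It passed without 3xTg control replicate 3 (adjusted p = 0.0479) or without 3xTg MCT replicate 3 (adjusted p = 0.0202), in each of which Fbp1 was the lowest of its group.

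G6pc, which releases glucose, was the member with the largest differences between groups on the log2 scale, and none of them passed the main test. WT control livers had 291, 285, 384 and 335 CPM. WT livers had 282, 172, 214 and 117 CPM on KD and 221, 263, 102 and 140 CPM on MCT, so that all 8 were below the 4 controls. The order was different in 3xTg, where control livers had 236, 133, 106 and 97.7 CPM, KD livers 343, 232, 401 and 127 CPM, and MCT livers 190, 253, 263 and 408 CPM. The log2 difference from control was -0.72 ± 0.35 for KD and -0.84 ± 0.35 for MCT in WT (adjusted p = 0.429 and 0.826), and 0.94 ± 0.35 and 0.96 ± 0.35 in 3xTg (adjusted p = 0.135 and 0.712). The 2 diets share their control livers within a genotype. The difference between the genotypes in the KD response was 1.67 ± 0.50 on the log2 scale (unadjusted p = 0.0029, adjusted p = 0.142) and that in the MCT response 1.79 ± 0.50 (unadjusted p = 0.00158, adjusted p = 0.9999), both in edgeR. Every 3xTg control liver was below every WT control liver, by a log2 difference of -1.18 ± 0.36 with adjusted p = 0.107. That difference between control livers passed under 4 of the alternatives tried: DESeq2 (adjusted p = 0.0268), no expression filter (0.0481), a fit of the compared groups alone (0.0333), and without 3xTg control replicate 1 (0.0389). KD against control in 3xTg passed without 3xTg KD replicate 4 (1.18, adjusted p = 0.0416), the lowest KD liver, and with library-size scaling (0.0266). The difference in the KD response passed in DESeq2 (adjusted p = 0.0374) and with library-size scaling (0.0237). With library-size scaling, 3xTg against WT on KD also passed (adjusted p = 0.0419). Its value was 0.53 relative to the median of all genes, which was 0.43 there, and the test used the difference before subtraction. In that fit 4321 of 4519 called genes were higher in 3xTg. For KD in 3xTg and for the KD response, the library-size medians were 0.31 and 0.45.

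Slc37a4, the transporter that feeds G6pc, was lower in every 3xTg KD liver (58.2, 57.6, 76.9 and 70.7 CPM) than in every 3xTg control liver (142, 96.5, 82.9 and 115 CPM). The closest livers of the 2 groups were 76.9 and 82.9 CPM. The log2 difference was -0.73 ± 0.27 (unadjusted p = 0.0117 in edgeR), and the adjusted p was 0.123. It fell under the threshold when the compared groups were fitted alone (adjusted p = 0.0371) and without the 6 pancreas-bearing libraries (adjusted p = 0.0267). In WT the KD livers had 90.4, 70.1, 80.7 and 91.8 CPM and the controls 106, 98.7, 122 and 87.7 CPM, with overlap and a log2 difference of -0.31 ± 0.26 (adjusted p = 0.691). The difference between these 2 KD responses was -0.42 ± 0.37 with adjusted p = 0.660. The 3xTg MCT livers spanned the widest range, from 42.1 to 175 CPM, so that KD against MCT in 3xTg gave -0.71 ± 0.27 with adjusted p = 0.107, and without the liver at 42.1 CPM (3xTg MCT replicate 3) -0.97 with adjusted p = 0.00942.

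At the pyruvate dehydrogenase step, the substrate of the kinases was the steadiest member. Pdha1 lay between 141 and 218 CPM in all 24 livers, with group means from 158 ± 12.9 CPM (SD, n = 4) in 3xTg MCT to 185 ± 27.2 CPM in WT KD. KD differed from control by 0.16 ± 0.13 in WT and 0.12 ± 0.13 in 3xTg on the log2 scale, with 95% intervals of -0.12 to 0.44 and -0.16 to 0.39 and adjusted p = 0.682 and 0.704.

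Pdk1 fell on KD in 3xTg liver and was the only member called in any comparison. WT livers had 194, 246, 239 and 268 CPM on control diet, 217, 208, 210 and 165 CPM on KD, and 279, 272, 287 and 237 CPM on MCT. In 3xTg the values were 238, 327, 311 and 273 CPM on control diet, 203, 156, 159 and 178 CPM on KD, and 261, 303, 209 and 170 CPM on MCT. The 4 KD livers of 3xTg were all below the 4 controls, while in WT the KD and control livers overlapped. KD against control gave a log2 fold change of -0.72 ± 0.16 in 3xTg (a level of 0.606 times control, adjusted p = 0.0124) and -0.24 ± 0.16 in WT (95% interval -0.58 to 0.10, adjusted p = 0.588). The difference between these responses was -0.48 ± 0.23 (unadjusted p = 0.0467, adjusted p = 0.341 in edgeR), so a difference between the genotypes was not shown. Averaged over both genotypes, Pdk1 fell by 0.48 ± 0.11 on the log2 scale on KD, with adjusted p = 0.0190.

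The Pdk1 call in 3xTg depended on single livers: it held in 6 of 8 omissions of a single liver and was lost in 2. The adjusted p was 0.0516 without 3xTg control replicate 2, the highest control, and 0.0574 without 3xTg KD replicate 3. Without KD replicates 2 and 3 together, the livers with the highest neutrophil marker sums, the log2 difference was -0.59 with adjusted p = 0.270 and 2 KD livers remaining. With library-size scaling in place of TMM, the adjusted p was 0.101. The value was then -0.74 relative to the median of all genes, which was 0.31, and the test used the difference before subtraction. In DESeq2 the value was -0.74 with adjusted p = 0.000481. The 3xTg KD livers also differed from the controls in their TMM factors, as given above. Before TMM scaling they differed in their neutrophil, Kupffer cell, pericentral, endothelial, stellate and hepatocyte marker sums, while the periportal sums overlapped. TMM scaling divides by the TMM factors, which were higher in the 3xTg KD livers, so it would lower their sums relative to the controls. Pdk1 levels are TMM-scaled, and the marker sums were not compared on that scale. The part of the TMM factors and of the marker sums in the fall of Pdk1 was not tested. The average over genotypes had adjusted p = 0.0530 without 3xTg control replicate 2, 0.195 without the 6 pancreas-bearing libraries (log2 difference -0.43, with 1 WT KD liver remaining), 0.155 without 3xTg KD replicates 2 and 3, and 0.0601 with library-size scaling. Pdk1 on KD was also below MCT, by -0.43 ± 0.16 in WT, where the groups did not overlap, and by -0.44 ± 0.16 in 3xTg, where they did, with adjusted p = 0.512 and 0.101. In 3xTg that comparison passed without MCT replicate 4 (adjusted p = 0.0357).

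Pdk2, the kinase with broad expression, and Pdk4, the kinase linked to fasting, did not pass in any comparison. Pdk2 lay between 36.1 and 101 CPM, and both ends of that range were WT KD livers. Its log2 difference between KD and control was 0.28 ± 0.23 in WT and -0.19 ± 0.23 in 3xTg (adjusted p = 0.680 and 0.735). Pdk4 had 24.4, 49.1, 49.1 and 66.8 CPM in WT control, 66.1, 29.9, 36.4 and 17.2 CPM in WT KD, 44.4, 35.9, 12.7 and 17.6 CPM in 3xTg control, and 93.2, 38.9, 39.9 and 21.7 CPM in 3xTg KD livers. Each group held both low and high livers. The log2 difference of KD from control was -0.34 ± 0.53 in WT (95% interval -1.47 to 0.78) and 0.81 ± 0.54 in 3xTg (-0.32 to 1.94), with adjusted p = 0.863 and 0.468. The intervals hold a doubling in 3xTg and more than a halving in WT, so a Pdk4 response of that size could not be told from none with 4 livers a group.

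The make-up of the kinase transcripts was set out per kilobase. Pdk1 supplied 54.9% ± 2.23 (SD, n = 4) of the summed Pdk1, Pdk2 and Pdk4 level in WT control livers, 49.6% ± 7.18 in WT KD, 59.4% ± 4.15 in WT MCT, 59.9% ± 3.90 in 3xTg control, 46.2% ± 2.44 in 3xTg KD and 53.8% ± 11.1 in 3xTg MCT. Pdk4 supplied between 8.68% ± 4.97 (3xTg control) and 18.4% ± 8.82 (3xTg KD). In 3xTg, the Pdk1 share was 43.7% to 49.5% on KD and 54.7% to 63.4% on control diet, with no overlap. In 1 WT KD liver (replicate 4), Pdk2 had a larger share (55.0%) than Pdk1 (39.0%). These shares rest on the same counts as the fold changes and are a description of them.

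**Figure D2:**
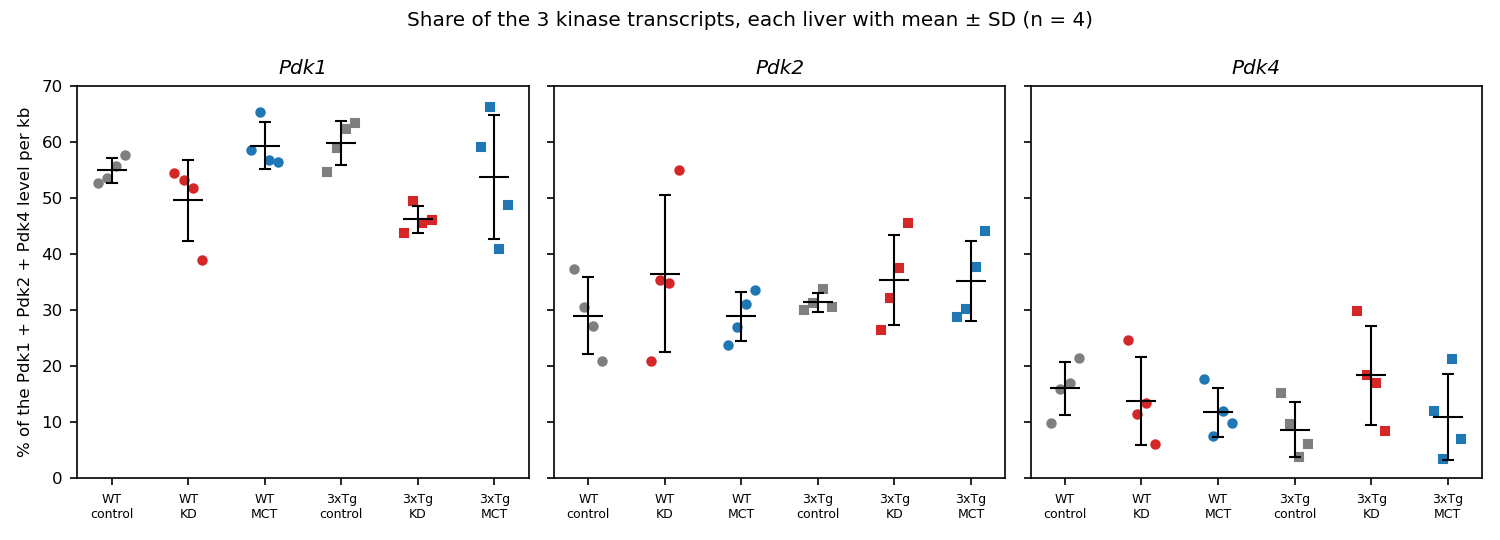
Share of each kinase transcript in the summed Pdk1, Pdk2 and Pdk4 level (CPM per kb of transcript, in percent) in each liver, with bars for the group mean ± SD (n = 4). The Pdk1 share of 3xTg KD livers (43.7% to 49.5%) lies below that of 3xTg control livers (54.7% to 63.4%), and the other panels overlap between those 2 groups.

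The count of members called is set beside the share of all tested genes called in the same comparison. For KD against control in WT, edgeR called 0 of 10 members and 0.399% of genes, and DESeq2 called 0 members and 266 genes. An edgeR p under 0.05 before adjustment was held by 0 members and 1568 of the 13281 genes. In 3xTg the same comparison called 1 of 10 members, against 4.92% of genes, and 3 members had a p under 0.05 before adjustment, as did 2452 genes, and DESeq2 called 1 member and 979 genes. For MCT against control no gene passed in edgeR in either genotype (0% of genes), although 769 genes in WT and 803 in 3xTg had a p under 0.05 before adjustment, among them 2 members and 1 member. DESeq2 called 16 and 17 genes and 0 members. KD against MCT called 0.173% of genes in WT and 7.34% in 3xTg and 0 members in either (edgeR), DESeq2 also called 0 members (92 and 1376 genes), and 1 and 4 members had an edgeR p under 0.05 before adjustment, as did 923 and 3040 genes. The average KD effect over genotypes called 3.29% of genes and 1 member, and DESeq2 called 732 genes and 1 member.

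Between genotypes, 0 of 10 members were called by edgeR on control diet, on KD or on MCT, where 1.61%, 7.94% and 1.52% of genes were called. The members with an unadjusted p under 0.05 numbered 2 on control diet (G6pc and Fbp1), 0 on KD and 0 on MCT, where 1528, 3040 and 1405 genes had such a p. DESeq2 called 1, 0 and 0 members and 385, 1402 and 309 genes. Averaged over diets, 8.90% of genes and 0 members were called in edgeR (2 members, Fbp1 and Pcx, and 2928 genes at an unadjusted p under 0.05, and 0 members and 1481 genes in DESeq2). The difference in the KD response was called for 0.00753% of genes, 1 gene that is no member, and 0 members in edgeR (2 members and 1880 genes at an unadjusted p under 0.05, 1 member and 251 genes in DESeq2). The difference in the MCT response was called for no gene (0%), with 273 genes and 1 member at an unadjusted p under 0.05 and 0 in DESeq2.

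Members whose 2 groups of 4 livers did not overlap were counted in the same way. In WT, KD and control livers did not overlap for 1 of 10 members (G6pc, lower) and for 7.24% of all genes, and MCT and control livers for 2 members (Pck2 higher, G6pc lower) and 2.67% of genes. In 3xTg the counts were 2 members (Slc37a4 and Pdk1, lower) against 12.3% of genes for KD, and 0 against 3.32% for MCT. KD and MCT livers did not overlap for 2 members in WT (Fbp1 and Pdk1, lower on KD) against 3.64% of genes, and for 0 in 3xTg against 12.9%. Between genotypes, 1 member did not overlap on control diet (G6pc, lower in 3xTg) against 8.67% of genes, 1 on KD (Pcx, lower in 3xTg) against 13.7%, and 0 on MCT against 5.14%.

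The other genes of the route were described through 5 lists. Pklr, the liver pyruvate kinase that runs the last step of glycolysis against gluconeogenesis, fell most. It had 270 ± 16.7 CPM (SD, n = 4) in WT control, 119 ± 37.8 in WT KD, 341 ± 92.5 in WT MCT, 584 ± 69.0 in 3xTg control, 103 ± 48.6 in 3xTg KD and 420 ± 104 in 3xTg MCT livers. KD against control gave -2.50 ± 0.29 in 3xTg (adjusted p = 2.8e-05) and -1.18 ± 0.28 in WT, where it did not pass (adjusted p = 0.0550), and KD against MCT gave -2.02 ± 0.28 in 3xTg and -1.52 ± 0.28 in WT, both called. On control diet Pklr was higher in 3xTg by 1.11 ± 0.27 (adjusted p = 0.0370), a call lost in 7 of 8 omissions of a single liver (adjusted p up to 0.112). The KD against MCT call in WT was lost without the pancreas-bearing libraries (-0.93, adjusted p = 1, with 1 WT KD liver remaining), in a fit of those groups alone (adjusted p = 0.148) and in 3 of 8 omissions of a single liver. Of the 5 listed enzymes and regulators of glycolysis that oppose the route, Pklr was the only one called in any of these comparisons, and the list's median log2 difference between KD and control was -0.38 in WT and -0.59 in 3xTg, against 0.00 and 0.01 for all genes tested.

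For the other lists, KD against control in WT called no gene in edgeR, and 5 of the 29 control genes had a p under 0.05 before adjustment. In 3xTg, 2 of 8 tested enzymes shared by glycolysis and gluconeogenesis fell and 0 rose, among them Gpi1, the phosphoglucose isomerase (-0.75 ± 0.19, adjusted p = 0.0239), with a list median of -0.51. Of 19 genes for substrate supply and mitochondrial carriers, 1 rose and 0 fell, the lactate dehydrogenase subunit Ldha (0.57 ± 0.16, adjusted p = 0.0374). Of 13 genes of the rest of the pyruvate dehydrogenase complex, its regulators and the pyruvate carrier, 1 fell and 0 rose, the acetyltransferase core Dlat (-0.74 ± 0.18, adjusted p = 0.0206), while Pdha1 did not pass. Of 29 genes for transcriptional and hormonal control, Cebpb, a transcription factor of fasting and inflammation, rose (0.9998 ± 0.287, adjusted p = 0.0457) and Onecut1, a hepatocyte transcription factor, fell (-1.26 ± 0.36, adjusted p = 0.0469). Each of the calls of Gpi1, Ldha, Dlat, Cebpb and Onecut1 was lost in at least 3 of the 8 omissions of a single liver (Ldha in 8 of 8, with adjusted p up to 0.119) and without 3xTg KD replicates 2 and 3 (2 KD livers remaining, with -0.62, 0.68, -0.53, 1.01 and -1.31 in that order), and 3 of them (Dlat, Gpi1 and Onecut1) with library-size scaling, whereas the fall of Pklr in 3xTg held in all 8 omissions, with adjusted p up to 0.000257.

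Tested genes numbered 8 for the shared enzymes, 19 for substrate supply, 13 for the pyruvate dehydrogenase list, 29 for control and 5 for opposing glycolysis. KD against control in 3xTg called 7 genes of these lists, where 4.92% of all genes were called. KD against MCT in 3xTg called 8, where 7.34% were. Pklr and, of the shared enzymes, Gpi1 (-0.88 ± 0.19, adjusted p = 0.00735) fell. Of the substrate genes, the alanine transaminase Gpt2 rose (1.07 ± 0.23, adjusted p = 0.00718) and the aspartate transaminase Got1 fell (-1.20 ± 0.35, adjusted p = 0.0367), and Cebpb rose (1.22 ± 0.29, adjusted p = 0.0134). Beyond the 6 genes that the rule takes, Pdpr (0.38 ± 0.11), the regulatory subunit of the phosphatase that reactivates pyruvate dehydrogenase, and Ldhb (-1.05 ± 0.31) were also called. Ldhb was at a low level, 1.22 to 3.15 CPM in 3xTg KD and 2.07 to 5.34 CPM in 3xTg MCT livers. The calls of Gpi1 and Gpt2 held in 8 of 8 omissions of a single liver, that of Cebpb in 7 and those of Got1, Pdpr and Ldhb in 2 or 3. In these 3xTg groups, 2 of 4 MCT livers carried pancreas transcripts, and without pancreas-bearing libraries Gpt2 (0.80, adjusted p = 0.0732), Cebpb (1.23, 0.0884), Pdpr (0.44, 0.117) and Ldhb (-0.68, 0.419) were not called, with 2 MCT livers remaining. Without 3xTg KD replicates 2 and 3, which leaves 2 KD livers, Gpi1 (-0.72, adjusted p = 0.125), Cebpb (1.26, 0.0702), Got1 (-1.37, 0.121), Pdpr (0.30, 0.333) and Ldhb (-0.67, 0.396) were not called. Averaged over genotypes, KD lowered Pklr and Dlat (-0.48 ± 0.13) and raised Ppara, the fatty acid receptor (0.43 ± 0.09, adjusted p = 0.0078), Creb3l3, a fasting-induced factor (0.56 ± 0.15), and Gk, the glycerol kinase that feeds glycerol into the route (0.61 ± 0.17). The Ppara call held in 16 of 16 omissions of a single liver and those of Creb3l3, Dlat and Gk were lost in 10, 10 and 13 of them. Without the pancreas-bearing libraries, which leaves 1 WT KD liver, the log2 differences were 0.37 for Ppara (adjusted p = 0.281), 0.51 for Creb3l3 (0.276), -0.42 for Dlat (0.299) and 0.67 for Gk (0.130), none of them called.

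**Figure D3:**
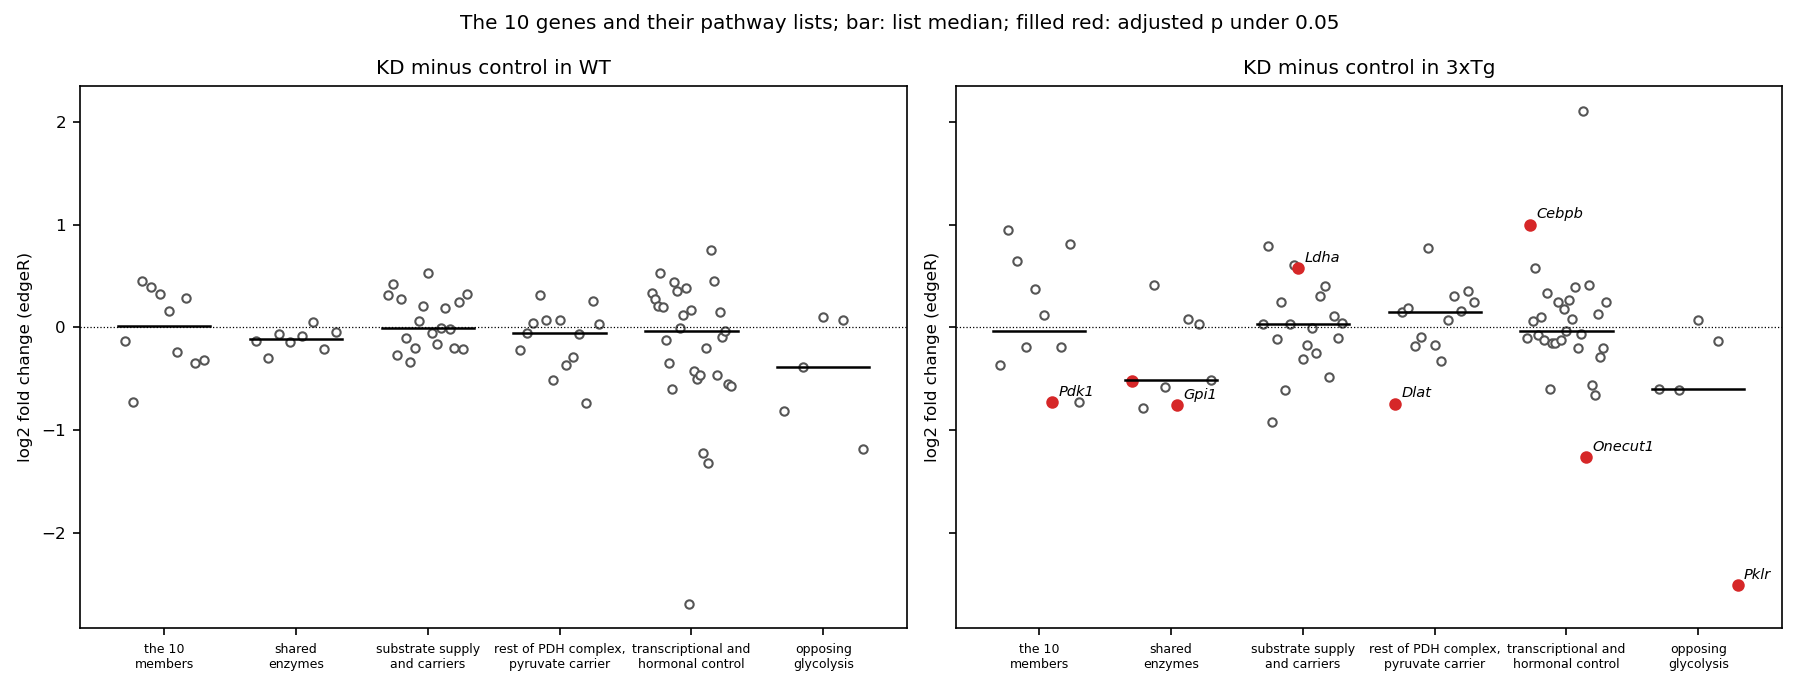
Log2 fold change of KD against control (edgeR) for the 10 genes and the tested genes of 5 pathway lists in WT and 3xTg livers (n = 4 a group), with a bar for each list's median and filled red points for adjusted p under 0.05. No point is filled in WT, and in 3xTg the lowest filled point is Pklr at -2.50, with Pdk1, Gpi1, Dlat and Onecut1 also below 0 and Ldha and Cebpb above 0.

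Between genotypes, 3 genes of these lists were lower in 3xTg averaged over diets: the pyruvate carrier subunit Mpc2 (-0.41 ± 0.09, adjusted p = 0.00394), Esrrg, a nuclear receptor (-0.89 ± 0.20, adjusted p = 0.00596), and Ldha (-0.37 ± 0.09, adjusted p = 0.0116), each called in 24 of 24 omissions of a single liver. With library-size scaling Mpc2 (adjusted p = 0.0966) and Ldha (0.119) were lost, and without the pancreas-bearing libraries Esrrg (0.0579) and Ldha (0.0726). On control diet Ldha was lower (log2 difference -0.64 ± 0.16, adjusted p = 0.0393), a call lost in 7 of 8 omissions of a single liver. On KD, Gpi1 (-0.70), the transaminase Got2 (-0.56), Mpc2 (-0.57) and Onecut1 (-1.57) were lower and the immediate early gene Nr4a1 (2.57 ± 0.77) higher in 3xTg. Nr4a1 was near the detection limit, at 0 to 1.58 CPM in WT KD and 1.47 to 6.78 CPM in 3xTg KD livers. Of these 5 calls, that of Onecut1 alone held in 8 of 8 omissions. Without the 6 pancreas-bearing libraries, which leaves 1 WT KD liver, none of the 5 was called, with log2 differences of -0.95 for Gpi1, -0.71 for Got2, -0.59 for Mpc2, -2.04 for Onecut1 and 5.23 for Nr4a1. For MCT against control, for the genotypes on MCT and for the differences between responses, no gene of these lists was called in edgeR. The gene closest to a call was Ppara for MCT in WT (0.40 ± 0.13, adjusted p = 0.749) and Irs2, an insulin receptor substrate, for MCT in 3xTg (1.29 ± 0.42, adjusted p = 0.650).

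Levels of the members were compared with each other over the 24 livers, on log2 CPM. None of 45 pairs passed after adjustment, by Pearson or by Spearman correlation with 100000 permutations. The highest was Fbp1 with Slc37a4 (r = 0.62, rho = 0.63, permutation p = 0.00141 and 0.00116, adjusted p = 0.0634 and 0.0522), and within-group deviations of the same pair gave r = 0.72. Without the 2 livers farthest from the median of Fbp1 the coefficient was 0.58, and 0.47 without the 2 farthest in Slc37a4. The lowest was Pcx with Pdk1 (r = -0.56, rho = -0.55, permutation p = 0.00486, adjusted p = 0.101), and Pdk4 was positively correlated with Pdha1, the substrate of its kinase activity (r = 0.54, rho = 0.53, permutation p = 0.00676, adjusted p = 0.101). Pck1 and G6pc, often used together as readouts of gluconeogenesis, had r = 0.41 and rho = 0.22, and r fell to 0.03 without the 2 livers farthest in Pck1, so that relation rests on those livers. Within-group deviations gave 0.77 for Pcx with Slc37a4 (r = 0.33 over all 24 livers) and 0.73 for Pdk1 with Pdha1 (r = 0.18). Both were above the within-group value of Fbp1 with Slc37a4. All livers share the library preparation and TMM scaling, and the marker sums and clock genes above varied over the same livers.

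**Figure D4:**
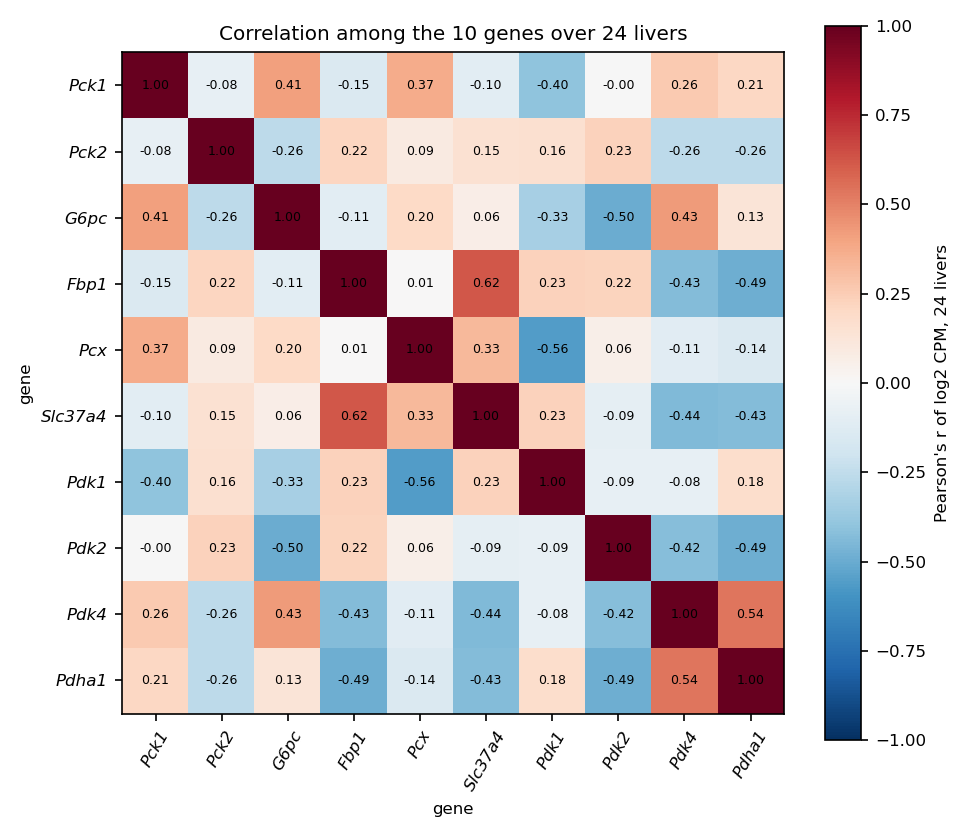
Pearson correlation of log2 CPM between each pair of the 10 genes over 24 livers, with blue for negative and red for positive values. The darkest cells off the diagonal are Fbp1 with Slc37a4 (0.62) and Pcx with Pdk1 (-0.56), and none of the 45 pairs passed after adjustment.

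Outside the set, the genes with the pattern most like the 3 members of smallest adjusted p were listed by Pearson correlation over the 24 livers, among genes with a mean of at least 5 CPM. For Pdk1 these included Enpep (r = 0.84, rho = 0.84), Elovl6 (0.82, 0.83) and Gng11 (0.82, 0.79). For Fbp1 they were Tkfc (0.83, 0.77), Hgd (0.79, 0.77), Rer1 (0.78, 0.75) and Bst2 (0.74, 0.75). For G6pc they were Ip6k2 (0.67, 0.61), Igfbp1 (0.67, 0.64), Btg1 (0.65, 0.70) and Arl4d (0.64, 0.67). Igfbp1, a hepatocyte gene repressed by insulin, had 67.9 to 212 CPM in WT control livers and 10.8 to 28.1 CPM in WT KD livers, and in 3xTg 11.3 to 160 CPM on control diet and 36.1 to 114 CPM on KD. Its WT control and KD groups thus did not overlap, as with G6pc, but Igfbp1 was picked by its correlation with G6pc over these same livers. In WT MCT livers it had 5.82 to 139 CPM, which overlapped the WT control livers, unlike G6pc. The KD difference of Igfbp1 in WT was -2.68 ± 0.75 on the log2 scale with adjusted p = 0.114.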

How the data were processed

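Whole-number read counts per gene were deposited by the authors without normalization, as far as the values show. The name given to the deposited counts calls them stranded, and Trimmomatic, STAR and GRCm38 are named in the submitters' processing notes. Which strand was counted, and whether molecular identifiers were used, is not given in the sources used here. The 4 summary entries that name no gene, which held 21.5% to 30.1% of the counts of a library, were left out.

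Genes were filtered by edgeR's filterByExpr by group, leaving 13281 of 55335. Tests used edgeR 4.0.16 in R 4.3.3 (TMM, 1 quasi-likelihood fit of 24 libraries, 18 residual degrees of freedom, Benjamini-Hochberg adjustment over all genes tested, threshold 0.05) in 13 contrasts, and were checked on simulated data. Levels of single genes are CPM, scaled by TMM, and marker sums are CPM of the library total without TMM scaling. Levels per kilobase use the longest protein-coding transcript in GENCODE vM21, whose coordinates equal the deposited ones for all 10 members. Correlations used scipy 1.17.1.

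The members and lists were chosen with earlier results of these data known. All members are named, with up to 6 called genes of 5 lists per contrast by smallest adjusted p, and, for the 3 members of smallest adjusted p, the 4 genes of most similar pattern. Results for some of these genes are not reported here. Gk stands for the symbol Gyk of the list. Pcx, Pdk2 and Pdha1 overlap genes on the opposite strand, as Pck2 does, and Slc37a4 overlaps a microRNA gene.

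Replicates did not look duplicated (smallest chi-square per gene 26.1). Deviations of same-numbered livers were correlated (all 4 correlations over 0.1) in 1 of 9 pairs of groups, 3xTg against WT on MCT. Alternatives were RLE factors, library size, no filter, DESeq2 1.42.0, a replicate block, the compared groups alone, leaving out each liver, the 6 pancreas-bearing libraries or 3xTg KD replicates 2 and 3, and, chosen after seeing the data, edgeR's newer quasi-likelihood method (legacy=FALSE).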

Additional observations from a re-analysis of the deposited data

Results flagged for a closer look

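In 2 of the 60 sets of 4 livers formed by the 10 genes and 6 groups, 1 liver stood apart from the others by Dixon's criterion (the gap to the nearest liver as a part of the group's range, at the 95% critical value), which chance meets in about 1 in 20 sets. Pck1 in WT MCT replicate 4 had 1319 CPM, while the other livers of that group had 828 to 893 CPM, and the gap was 0.868 of the range. Pcx in 3xTg KD replicate 2 had 370 CPM, while the other 3 livers had 457 to 464 CPM, and the gap was 0.921 of the range. That 3xTg KD liver is also 1 of the 2 with a high sum of neutrophil markers (85.0 CPM), and the part of that in its Pcx level was not tested.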

How the results depend on the processing

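Of 3139 single-gene values under alternative settings, 2908 kept their side of the threshold, 205 were no longer called and 26 became called. No called value reversed (0), and 114 of the 2908, called neither in the main fit nor in the alternative, changed sign. Scaling by library size alone moved the median log2 difference of all genes by up to 0.45 (KD response), and the values here are relative to that median. The adjusted p values test the difference before the median was subtracted. It gave 1650 called genes (1547 higher, 103 lower, against 345 and 308 in the TMM fit) and 3 called members (G6pc, Pcx and Pdha1, higher) for KD against control in 3xTg, 15 genes for KD against MCT in WT, 4235 genes (4055 higher, 180 lower) and 1 member for KD against MCT in 3xTg, 4519 genes (4321 higher, 198 lower) and 3 members for 3xTg against WT on KD, 879 genes and 1 member for the difference in KD response, 0 members for the average KD effect, and 1814 genes (1470 higher, 344 lower) and 1 member for the average genotype effect. Without an expression filter, 152 genes were called for KD in WT, 3 for MCT in 3xTg, 50 for KD against MCT in WT, 12 for the KD response, and 1 member (G6pc) for the genotypes on control diet. DESeq2 called 266 genes for KD in WT, 16 and 17 for MCT in WT and 3xTg, 92 for KD against MCT in WT, 385 (1 member, G6pc) for the genotypes on control diet, 309 on MCT, 251 (1 member, G6pc) for the KD response and 732 for the average KD effect. Compared groups fitted alone gave 121 genes for KD in WT, 2 members for KD in 3xTg, 7 and 404 genes for KD against MCT in WT and 3xTg, 1 member for the genotypes on control diet, 624 and 71 genes on KD and MCT, 45 for the KD response and 3 members for the average KD effect. The quasi-likelihood setting chosen after seeing the data gave 86 genes for KD in WT. Without the 6 pancreas-bearing libraries, 4 genes were called for KD in WT, 2 members for KD in 3xTg, 7 genes for KD against MCT in WT, 233 genes and 1 member in 3xTg, 80 and 89 genes for the genotypes on KD and MCT, 79 genes and 0 members for the average KD effect, and 593 genes for the average genotype effect. Without 3xTg KD replicates 2 and 3 together, 62 genes and 0 members were called for KD in 3xTg, 184 genes for KD against MCT, 127 for the genotypes on KD, 0 for the KD response, and 214 genes and 0 members for the average KD effect.

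Leaving out 1 liver at a time gave 9 to 43 called genes for KD in WT, 200 to 849 for KD in 3xTg (members 0 to 2), 0 to 1 for MCT in WT, 7 to 25 and 454 to 1078 for KD against MCT in WT and 3xTg (members 0 to 2 in 3xTg), 124 to 194 for the genotypes on control diet (members 0 to 1), 429 to 1233 on KD, 0 to 75 for the KD response, members 0 to 1 for the average KD effect, and members 0 to 1 for the average genotype effect. An arm then holds 3 livers. With a replicate block, the difference in KD response called 0 genes in place of 1, Pklr between the genotypes on control diet had adjusted p = 0.0550, and no other call of the members or of the called genes of the lists changed. In the pair of groups where the numbers pair the livers (correlations 0.187 to 0.306), the block gave 189 genes against 202. Over the 9 pairs of groups the correlations of same-numbered livers ran from -0.505 to 0.438, and 13 of 36 were over 0.1. The labels give no pairing, and these correlations cannot show whether livers of the same number were paired. The cause of these changes was not tested. Depth limits Pck2 most, with 22 to 86 reads per library.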
